A study of Mus musculus with 12 samples.

Results

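The genes examined were 10 immediate early genes of whole mouse liver: the AP-1 genes Fos, Fosb, Jun, Junb, Jund and Atf3, together with Egr1, Ier2, Ier3 and Myc. The rule that defines them is a list of names, and all were found by symbol among the 36528 gene IDs of the count table. All 10 were among the 16032 genes that passed a filter on low counts and were tested. Of the 12 mice, 6 had been injected with carbon tetrachloride (CCl4) and 6 with its corn oil vehicle, in both groups into the peritoneum, 3 times a week over 6 weeks. CCl4 is a solvent that hepatocytes convert into a toxic radical, and repeated doses scar the liver. The labels used here give no strain, sex or age, and no time between the last injection and the harvest.

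Immediate early genes are transcribed within minutes of a stimulus, without the need for new protein, when MAP kinase and calcium signals act on transcription factors that already sit at their promoters, such as SRF with its ternary complex partners and CREB. Their mRNAs are short-lived, and most encode transcription factors: FOS and JUN proteins pair to form AP-1, EGR1 is a zinc finger protein, and MYC drives growth genes. In the liver they are known for their induction after partial hepatectomy, after injury and during the isolation of tissue or cells.

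The 300 bases around the annotated start (250 before it and 50 after it) were in the RefSeq promoter table of build GRCm38.p6 for 7 of the 10 genes. The promoters of Fosb, Jun and Ier3, the 3 genes that passed the test below, and of Fos, which varied widely between livers, are shown 5′ to 3′ on the strand of the gene. Capitals mark the letters TGACG, the core that CREB and ATF proteins bind, or TATAAA, the box that positions the start of transcription. They cover chr12:85473640-85473939 (plus strand) for Fos, chr7:19309996-19310295 (minus strand) for Fosb, chr4:95052173-95052472 (minus strand) for Jun and chr17:35821463-35821762 (plus strand) for Ier3.
Fos: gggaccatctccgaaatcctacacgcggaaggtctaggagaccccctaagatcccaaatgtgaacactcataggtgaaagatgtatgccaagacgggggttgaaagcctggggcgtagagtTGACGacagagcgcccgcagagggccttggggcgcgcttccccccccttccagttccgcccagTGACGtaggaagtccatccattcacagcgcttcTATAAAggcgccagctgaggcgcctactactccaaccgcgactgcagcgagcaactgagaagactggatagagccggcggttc
Fosb: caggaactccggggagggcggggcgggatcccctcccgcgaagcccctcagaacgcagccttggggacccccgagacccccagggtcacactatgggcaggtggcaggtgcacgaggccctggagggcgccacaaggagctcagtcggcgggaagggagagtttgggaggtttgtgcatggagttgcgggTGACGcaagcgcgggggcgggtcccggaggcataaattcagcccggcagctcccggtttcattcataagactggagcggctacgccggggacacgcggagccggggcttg
Jun: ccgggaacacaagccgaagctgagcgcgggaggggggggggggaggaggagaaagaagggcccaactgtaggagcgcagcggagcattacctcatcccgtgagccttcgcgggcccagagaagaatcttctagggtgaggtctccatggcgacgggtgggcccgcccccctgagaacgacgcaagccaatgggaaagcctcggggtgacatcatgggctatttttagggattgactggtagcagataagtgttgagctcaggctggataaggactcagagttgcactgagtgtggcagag
Ier3: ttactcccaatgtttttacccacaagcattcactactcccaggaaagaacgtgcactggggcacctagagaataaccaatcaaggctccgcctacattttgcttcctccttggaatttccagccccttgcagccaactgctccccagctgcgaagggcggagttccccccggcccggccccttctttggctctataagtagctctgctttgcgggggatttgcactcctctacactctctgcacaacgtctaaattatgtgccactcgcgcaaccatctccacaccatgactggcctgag

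Both strands were searched for each motif. TGACG, a search added after the other motifs had been counted, was found in 4 of the 7 promoters (Fos, Fosb, Junb and Atf3), against 20.8% of the 32851 promoters in the table. The Fos promoter held it 129 and 66 bases before the start, and the Fosb promoter 60 bases before the start. TATAAA was in the promoters of Fos, 33 bases before the start, and of Junb, beginning at the annotated start itself, against 13.6% of all promoters. The full CREB site TGACGTCA, which contains TGACG, the AP-1 site TGANTCA and the CArG box bound by SRF were in 0 of the 7, against 1.79%, 7.81% and 1.63% of all promoters. These are exact matches of letters within this window, and variant sites or sites outside it were not counted.

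Fosb and Jun fell in CCl4 livers and Ier3 rose, while the other 7 genes did not pass the test (edgeR's quasi-likelihood test, adjusted p under 0.05 over all 16032 genes). Of all tested genes 39.0% were called, 18.4% lower and 20.6% higher, so 2 lower and 1 higher of 10 genes are shares close to that background. The median log2 fold change of the 10 genes was -0.79, against 0.01 for all tested genes. Values are given as CPM, which set each TMM-scaled library to 1000000 counts, as the lowest, the median and the highest of the 6 livers of a group. The differences of mean log2 CPM, CCl4 minus oil, were -1.429 for Fos, -4.392 for Fosb, -1.554 for Jun, -0.495 for Junb and -0.412 for Jund. They were -0.338 for Atf3, -1.099 for Egr1, -1.075 for Ier2, 1.993 for Ier3 and 0.461 for Myc. In whole liver, fewer cells of a type and less RNA per cell cannot be told apart. One control liver, oil replicate 5, bore on these counts: without it 7 of the 10 genes were called, 6 lower and 1 higher, where 46.2% of all genes were called (21.2% lower and 25.0% higher). It was the lowest oil liver for 9 of the 10 genes, so leaving it out raised the oil means of those genes. Without CCl4 replicate 1, the lowest CCl4 liver for 8 of the 10 genes, 3 were called, 2 lower and 1 higher. In that fit 7046 of all genes were called. With limma-voom and quality weights 7 genes were called, 6 of them lower, where 54.5% of all genes were called (27.1% lower and 27.4% higher). Without CCl4 replicate 6 and oil replicate 5, the libraries of their groups with the most counts in short transcripts, 6 were called, 5 of them lower, where 42.5% of all genes were called (19.7% lower and 22.7% higher). With a covariate for the length trend of each library, Fosb and Ier3 were called, where 42.6% of all genes were called (21.3% lower and 21.3% higher).

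Within the FOS family, whose proteins need a JUN partner to bind DNA, Fosb had the larger fitted difference. Fosb (gene ID 14282, chromosome 7, 19302696 to 19310118) had 0.407, 0.548 and 1.77 CPM in CCl4 livers, against 0.624, 26.3 and 57.9 CPM in oil livers. Of the 6 oil livers 5 lay above every CCl4 liver, and oil replicate 5 alone lay among the CCl4 values. Fosb was 35.3-fold lower in CCl4 livers (log2 fold change -5.14 ± 0.79 SE, edgeR adjusted p = 0.000169). It rested on 27 to 113 counts per CCl4 library and 24 to 2639 counts per oil library. The call was made in all 23 alternative fits, with adjusted p-values between 1e-10 and 0.0152.

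Fos (gene ID 14281, chromosome 12, 85473890 to 85477274), the founding member of the family, had 3.95, 66.1 and 140.5 CPM in CCl4 livers, against 14.1, 186.5 and 297.1 CPM in oil livers. Of the oil livers 4 lay above every CCl4 liver, yet the lowest oil liver lay below all CCl4 livers but 1. The difference did not pass the test (log2 fold change -1.31 ± 0.69 SE, edgeR adjusted p = 0.142). Without oil replicate 5 it was -1.56 with an adjusted p of 0.0458 in edgeR. Without CCl4 replicate 1, the lowest CCl4 liver, it was -1.09 with an adjusted p of 0.13 in edgeR. Per 1000 Fos counts there were 6.03, 10.6 and 108.0 Fosb counts in CCl4 livers, against 44.4, 142.0 and 195.0 in oil livers. The highest CCl4 ratio was that of replicate 1, which had only 250 Fos counts.

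**Figure D1:**
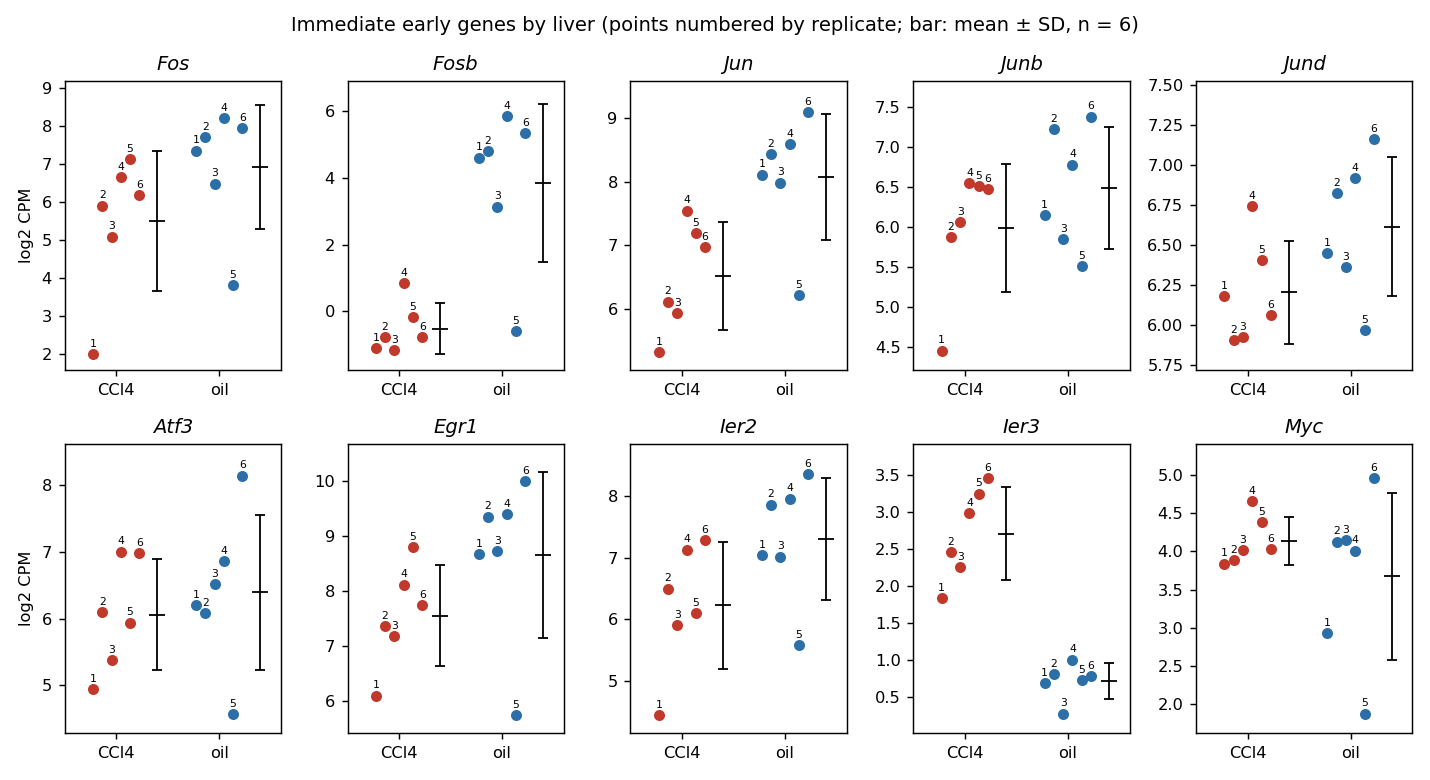
Log2 CPM of each of the 10 genes (vertical axis) in 6 CCl4 livers (left) and 6 oil livers (right). Each point is a liver numbered by its replicate, and the bar is the mean ± SD. Ier3 is the gene whose groups do not overlap, and oil replicate 5 lies at the bottom of its group for 9 of the 10 genes.

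Among the JUN genes, Jun fell, and Junb and Jund were not called. Jun (gene ID 16476, chromosome 4, 95049036 to 95052222), the strongest activator of the family, had 40.2, 97.4 and 186.6 CPM in CCl4 livers, against 74.7, 309.9 and 544.0 CPM in oil livers. Of the 6 oil livers 5 lay above every CCl4 liver, with oil replicate 5 again the exception. The level in CCl4 livers was 2.98-fold lower (log2 fold change -1.58 ± 0.43 SE, edgeR adjusted p = 0.0106). The call was kept in 22 of 23 alternative fits. With the covariate for length it was lost (log2 fold change -1.38, adjusted p = 0.140 in edgeR).

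Junb (gene ID 16477, chromosome 8, 84976909 to 84978748), a weaker activator that can restrain JUN, had 21.8, 77.8 and 93.8 CPM in CCl4 livers, against 45.4, 90.5 and 166.7 CPM in oil livers. Jund (gene ID 16478, chromosome 8, 70697739 to 70700616), the member of the family that is made steadily in resting cells, had 60.0, 69.6 and 107.1 CPM in CCl4 livers, against 62.6, 100.5 and 143.1 CPM in oil livers. Both groups overlapped widely for both genes. The log2 fold changes were -0.51 ± 0.37 SE for Junb and -0.43 ± 0.20 SE for Jund (edgeR adjusted p = 0.280 and 0.105). Per kilobase of exon, Jun made up 19.2%, 29.8% and 35.8% (lowest, median and highest liver) of the summed level of the 3 JUN genes in CCl4 livers, against 29.0%, 50.5% and 51.9% in oil livers. Jund made up 34.0%, 41.1% and 66.3% of that sum in CCl4 livers, against 26.1%, 30.5% and 46.5% in oil livers. CCl4 replicate 1 and oil replicate 5 gave the lowest Jun share and the highest Jund share of their groups. The next lowest Jun shares were 22.7% in CCl4 livers and 44.8% in oil livers. The next highest Jund shares were 43.2% in CCl4 livers and 32.1% in oil livers. These shares are descriptions without a test, and they depend on the exon lengths used.

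Atf3 (gene ID 11910, chromosome 1, 191170296 to 191183333), a stress-induced AP-1 partner that mostly represses, had 30.6, 64.9 and 128.3 CPM in CCl4 livers, against 23.6, 82.4 and 283.0 CPM in oil livers. The oil range enclosed the CCl4 range. The log2 fold change was -0.52 ± 0.49 SE (edgeR adjusted p = 0.414), and without oil replicate 6, the highest liver, it was 0.03.

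Egr1 (gene ID 13653, chromosome 18, 34861207 to 34864956), a zinc finger activator induced by MAP kinase signals, had 68.2, 189.2 and 444.6 CPM in CCl4 livers, against 53.2, 537.1 and 1024.0 CPM in oil livers. The lowest liver of all 12 was oil replicate 5, and the next oil liver stood at 407.0 CPM. The difference did not pass (log2 fold change -1.30 ± 0.53 SE, edgeR adjusted p = 0.0665). It passed without oil replicate 5 (log2 fold change -1.55, edgeR adjusted p = 0.00689) and also without CCl4 replicate 5, the highest CCl4 liver (log2 fold change -1.652, edgeR adjusted p = 0.0260). It did not pass without CCl4 replicate 1, the lowest CCl4 liver (log2 fold change -1.145, edgeR adjusted p = 0.0902).

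Ier2 and Ier3 share a name and fast induction but not sequence, and their fitted differences had opposite signs. Ier2 (gene ID 15936, chromosome 8, 84661331 to 84662852), a small nuclear protein, had 21.9, 79.5 and 156.8 CPM in CCl4 livers, against 48.0, 182.7 and 327.7 CPM in oil livers. The groups overlapped and the difference did not pass (log2 fold change -1.06 ± 0.46 SE, edgeR adjusted p = 0.0832). Without oil replicate 5 the adjusted p was 0.0243 in edgeR, and without CCl4 replicate 1, the lowest CCl4 liver, it was 0.104 in edgeR.

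Ier3 (gene ID 15937, chromosome 17, 35821713 to 35822911), a regulator of cell survival also known as IEX-1, had 3.54, 6.64 and 10.97 CPM in CCl4 livers, against 1.17, 1.648 and 1.97 CPM in oil livers. Every CCl4 liver lay above every oil liver. It was the only one of the 10 genes without overlap, against 20.0% of all tested genes. Ier3 was 4.31-fold higher in CCl4 livers (log2 fold change 2.11 ± 0.26 SE, edgeR adjusted p = 3.05e-05). It was called in all 23 alternative fits, with adjusted p-values between 3.13e-13 and 0.000192.

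Myc (gene ID 17869, chromosome 15, 61985341 to 61990361), the growth-promoting partner of MAX, had 14.3, 16.2 and 25.1 CPM in CCl4 livers, against 3.64, 16.8 and 31.0 CPM in oil livers. The medians lay close together and the oil range enclosed the CCl4 range. The log2 fold change was 0.20 ± 0.37 SE (edgeR adjusted p = 0.689), and without oil replicate 5 it was -0.01.

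**Figure D2:**
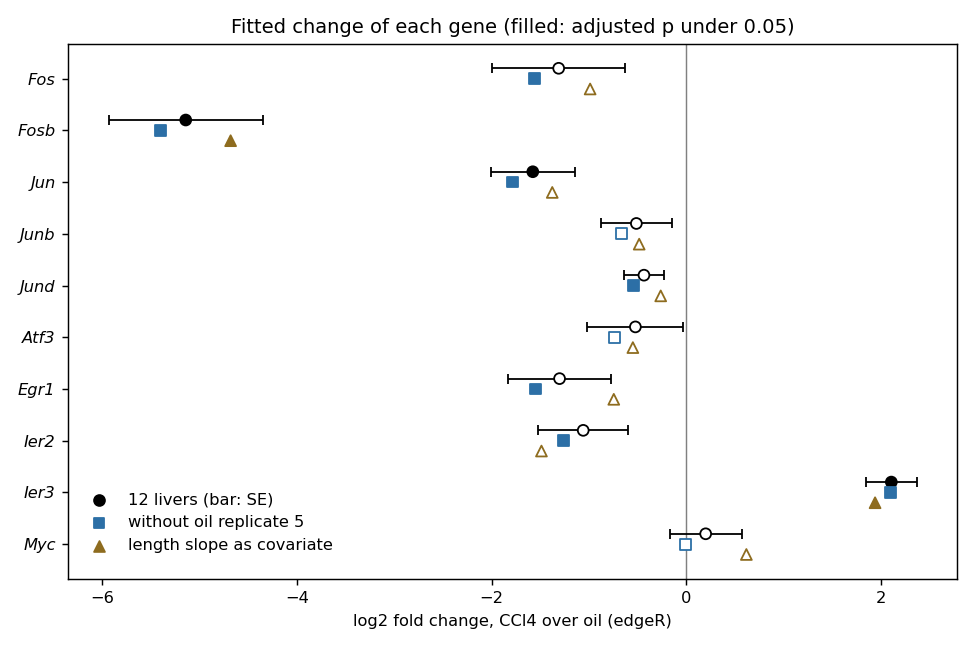
Fitted log2 fold change of CCl4 over oil (horizontal axis) for each of the 10 genes, from edgeR on 6 CCl4 and 6 oil livers (circles, with bars of 1 SE), without oil replicate 5 (squares) and with a covariate for transcript length (triangles). Filled points passed an adjusted p of 0.05: among the circles Fosb at -5.14, Jun at -1.58 and Ier3 at 2.11, and among the squares 7 genes.

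Per kilobase of exon, with the exons of a gene merged over GENCODE M21 transcripts, Ier2 and Egr1 had the highest mean levels in both groups. For Egr1 (4484 bases) and Junb (2301 bases) this length exceeds the span of the gene given above. Levels, orders and family shares per kilobase therefore depend on the annotation used for length. Ier2 stood at 58.9 ± 33.5 and Egr1 at 48.8 ± 29.2 CPM per kilobase in CCl4 livers, against 122.6 ± 66.6 and 120.2 ± 72.9 CPM per kilobase in oil livers (SD, n = 6 each). In CCl4 livers Jund, Atf3, Jun, Junb, Fos, Myc, Ier3 and Fosb followed in that order, from 45.1 ± 10.8 CPM per kilobase for Jund to 0.121 ± 0.0834 for Fosb. In oil livers the order was Jun, Fos, Jund, Atf3, Junb, Myc, Fosb and Ier3, from 98.1 ± 48.8 CPM per kilobase for Jun to 1.43 ± 0.230 for Ier3. Neighbours in these orders overlapped between livers, except for Ier3 and Fosb in CCl4 livers and Junb and Myc in oil livers.

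The spread between livers of one group was large for most of these genes. Fos had an SD of 1.85 on the log2 CPM scale in CCl4 livers and 1.64 in oil livers, where the median gene had 0.37 and 0.32. The highest liver exceeded the lowest 35.6-fold in the CCl4 group and 21.1-fold in the oil group, and of the 16032 tested genes 22 in CCl4 livers and 25 in oil livers had a larger SD. Fosb had an SD of 0.77 in CCl4 livers and 2.37 in oil livers, where 4 tested genes exceeded it. Egr1 had an SD of 0.92 in CCl4 livers and 1.51 in oil livers, and Atf3 0.84 in CCl4 livers and 1.17 in oil livers. Jund was the steadiest AP-1 gene, with SDs of 0.32 in CCl4 livers and 0.43 in oil livers.

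Myc and Ier3 had a narrow spread in 1 group each. Myc had an SD of 0.32 in CCl4 livers and 1.09 in oil livers, while Ier3 had 0.63 in CCl4 livers and 0.24 in oil livers. The mean absolute deviation from the group median was compared by an exact two-sided permutation test over all 924 assignments of 6 of 12 livers, adjusted over all tested genes. For Ier3 the unadjusted p was 0.0152 and the adjusted p 0.554, and for Myc they were 0.195 and 0.737. None of the 16032 genes passed the adjusted threshold in this test, and 1219 (7.6%) had an unadjusted p under 0.05. The other 8 genes had unadjusted p-values of at least 0.292. The smallest adjusted p of any gene was 0.259. The smallest p that 924 assignments allow is 0.00216, so a gene standing alone could not pass adjustment over 16032 genes, and the adjusted result says little about any single gene. The same permutation test was also run on squared deviations from the group mean, the measure behind the SD. Its unadjusted p was 0.0173 for Myc, 0.0238 for Ier3 and 0.0628 for Fosb, and higher for the rest. The adjusted p-values of these 3 genes in that test were 0.3905, 0.4154 and 0.4531.

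**Figure D3:**
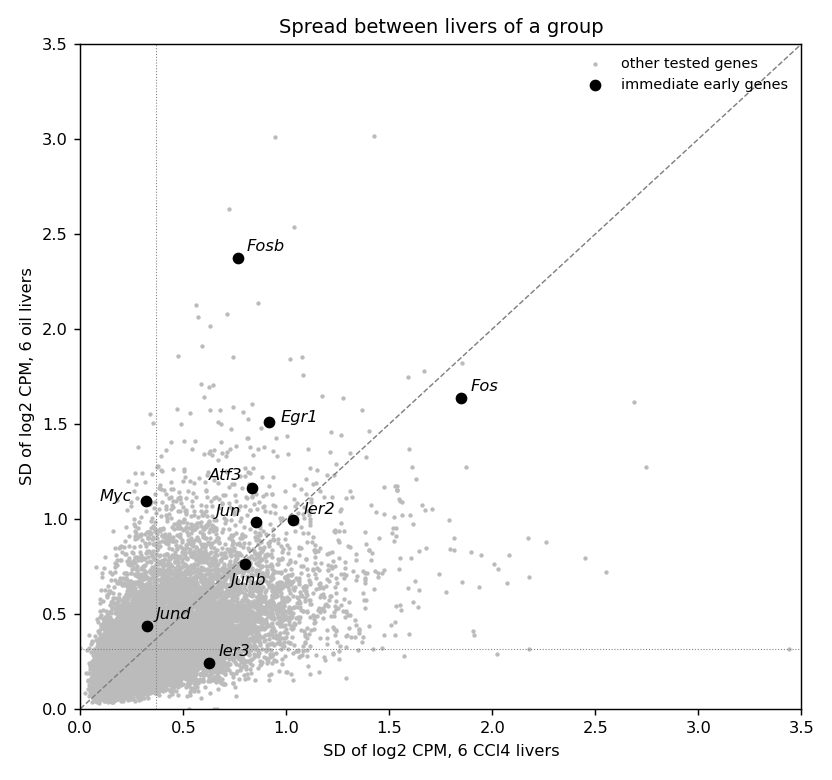
SD of log2 CPM between the 6 CCl4 livers (horizontal axis) and between the 6 oil livers (vertical axis) for all 16032 tested genes (grey) and the 10 immediate early genes (labelled). The dashed line marks equal SDs and the dotted lines the median gene. Fos lies far out on both axes, Fosb and Myc lie above the diagonal and Ier3 lies below it.

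The deviations of these genes from the group mean ran together across livers. CCl4 replicate 1 was the lowest of its group for 8 of the 10 genes, and oil replicate 5 for 9 of the 10. At the other end, CCl4 replicate 4 was the highest of its group for 6 genes and oil replicate 6 for 7 genes. After subtracting group means, log2 CPM of each other gene was correlated with that of Fos over the 12 livers, as a description of livers that share depth, library preparation and composition. Pearson's r lay between 0.615 for Jund and 0.915 for Egr1. Within the oil livers alone Fosb had an r of 0.999 with Fos, and within the CCl4 livers alone 0.599.

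Across-gene adjustment left none of these correlations past the threshold. All 9 genes had an unadjusted permutation p under 0.05 (100000 resamples within groups, two-sided), as had 4.29% of the 16031 genes compared with Fos. After Benjamini-Hochberg adjustment 0 genes passed, and the smallest adjusted p was 0.160, shared by Egr1 (Spearman's rho 0.895, adjusted p 0.681). The smallest p that the resamples allow is 1e-05, at which a gene standing alone could not pass either. Without the livers farthest from the median of Fos, CCl4 replicate 1 and oil replicate 5, r was 0.860 for Egr1, 0.845 for Fosb and 0.823 for Jun. It was 0.538 for Ier2, 0.434 for Atf3 and 0.354 for Myc, against 0.891, 0.761 and 0.647 with all 12 livers, so these 3 rested in good part on those livers.

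Among genes with a mean log2 CPM no lower than 1, those most like Fos by this r included Zfp36, Insig1, Prom1, Btg2, Actg1, Gdf15 and Trib1, with r between 0.898 and 0.950. They were ranked by r, so no test is given. Zfp36, which encodes an mRNA decay protein, headed the list. It had 73.1, 191.8 and 417.8 CPM in CCl4 livers, against 105.9, 599.4 and 839.2 CPM in oil livers (log2 fold change -1.31, edgeR adjusted p = 0.0286). That call was made in 6 of 12 fits that each left out 1 liver (highest adjusted p 0.0644 in edgeR) and was lost under the covariate for length (log2 fold change -0.85, adjusted p = 0.307 in edgeR). Insig1, a gene of sterol control, followed without a called difference between the groups (log2 fold change -0.38, edgeR adjusted p = 0.261). Prom1 was higher in CCl4 livers (log2 fold change 4.37, edgeR adjusted p = 8.99e-07). Actg1 has near-identical copies, so its counts are uncertain.

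**Figure D4:**
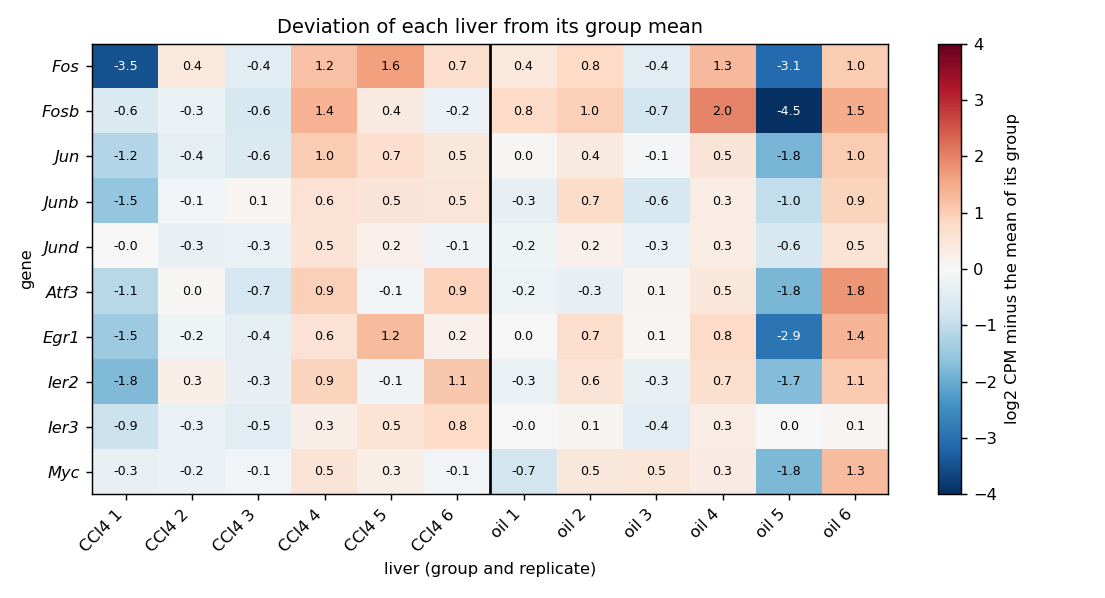
Log2 CPM minus the mean of its group (colour) for each of the 10 genes (rows) in each liver (columns, 6 CCl4 livers on the left and 6 oil livers on the right). The columns of CCl4 replicate 1 and oil replicate 5 are low for most genes.

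Total counts ran from 43027778 to 70375852, with 62120399 ± 6131709 in CCl4 livers and 52311656 ± 9879136 in oil livers (SD, n = 6 each). Measures of the libraries differed between the groups as well as between livers. Mitochondrial genes took 2.20% to 3.67% of counts in CCl4 livers, against 3.84% to 6.20% in oil livers, without overlap. The slope of log2 CPM on log2 transcript length was -0.309 to 0.131 in CCl4 livers, against -0.118 to 0.211 in oil livers. These measures are given for the livers that were lowest for most of the immediate early genes. CCl4 replicate 1 had a slope of 0.08, below 1 CCl4 liver only, the highest mitochondrial share of the CCl4 livers (3.67%) and a macrophage marker sum of 545 CPM, above 1 CCl4 liver only. Oil replicate 5 had the lowest slope of the oil livers (-0.118, with 0.0442 as the next), the lowest mitochondrial share (3.84%) and the highest macrophage sum (390.8 CPM). CCl4 replicate 6 had the lowest slope of all 12 libraries (-0.309). The mean correlation with the rest of the group was 0.967 for oil replicate 5, against 0.980 to 0.984 for the other oil livers. Among the CCl4 livers it ran from 0.959 (replicate 6) to 0.979 (replicate 3), with 0.966 for replicate 1. CCl4 replicate 1 held 319.1 CPM of muscle markers, and CCl4 replicate 5 held 306.6 CPM of pancreas markers. Apart from the fits with the covariate for length, the part of these measures in the levels of the immediate early genes was not tested.

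Marker sums also moved with the treatment. Macrophage markers summed to 517.6 to 1114 CPM in CCl4 livers, against 265.3 to 390.8 CPM in oil livers, and 8 of 10 rose. Stellate cell and myofibroblast markers summed to 734.1 to 961.9 CPM in CCl4 livers, against 224.0 to 359.8 CPM in oil livers, with 9 of 10 risen, and bile duct markers to 142.3 to 209.3 CPM in CCl4 livers, against 30.1 to 59.9 CPM in oil livers, with 5 of 8 risen. B cell markers summed to 7.74 to 10.4 CPM in CCl4 livers, against 4.23 to 6.21 CPM in oil livers. Endothelial sums overlapped, with 182.4 to 213.1 CPM in CCl4 livers and 153.1 to 239.6 CPM in oil livers. So did neutrophil sums, with 18.2 to 50.7 CPM in CCl4 livers and 13.6 to 50.7 CPM in oil livers, and T and NK cell sums, with 3.42 to 6.92 CPM in CCl4 livers and 4.34 to 6.89 CPM in oil livers. Hepatocyte markers summed to 91320 to 138000 CPM in CCl4 livers, against 103900 to 143400 CPM in oil livers, the highest of the marker sums in every library, and 5 of 9 fell. None of the hepatocyte, macrophage, stellate or bile duct markers found was at 0 in all libraries, and their part in the results was not tested.

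Genes around the immediate early genes were described from 11 lists, beside the background of 20.6% of all genes higher and 18.4% lower. Among 10 other AP-1 genes 4 rose and 3 fell, with a median log2 fold change of 0.06. Under the covariate for length 4 rose and 1 fell. Fosl1, the FOS family member that encodes FRA-1, had 1.14, 1.76 and 3.37 CPM in CCl4 livers, against 0.0937, 0.147 and 0.285 CPM in oil livers. Its groups did not overlap, and the log2 fold change was 3.58 ± 0.33 SE (edgeR adjusted p = 2.1e-06). Batf3, a partner of JUN in immune cells, rose (log2 fold change 1.39, edgeR adjusted p = 0.00168), and Atf7 fell (log2 fold change -1.32, edgeR adjusted p = 0.00664). Per kilobase, Fosl1 made up 1.76%, 2.49% and 21.9% of the summed level of Fos, Fosb, Fosl1 and Fosl2 in CCl4 livers, against 0.0499%, 0.0904% and 1.17% in oil livers (lowest, median and highest liver). Fosb made up 0.214%, 0.358% and 1.59% of that sum in CCl4 livers, against 1.31%, 4.95% and 6.70% in oil livers. CCl4 replicate 1 and oil replicate 5, the livers with the least Fos, gave the highest Fosl1 share of their groups, and the next highest were 7.18% in CCl4 livers and 0.187% in oil livers. The same livers gave the highest CCl4 and the lowest oil share of Fosb.

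Of 17 tested other immediate early transcription factors 6 fell and 4 rose, with a median of -0.59. Under the covariate for length 4 fell and 2 rose. Nfil3, a bZIP repressor, fell (log2 fold change -1.63, edgeR adjusted p = 8.55e-06), as did the nuclear receptor Nr4a2 (-2.18, adjusted p = 6.23e-05), while Ier5 rose (1.56, adjusted p = 5.34e-05). Of 23 tested immediate early effectors 7 fell and 3 rose, with a median of -0.24. Gadd45g, a growth arrest gene, and Sik1, a kinase that restrains CREB coactivators, fell (log2 fold changes -1.95 and -2.25, edgeR adjusted p = 0.000188 and 0.000579), and the survival gene Mcl1 rose (0.49, adjusted p = 0.00261).

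Of 16 genes that feed back on the early response 8 fell and 1 rose, with a median of -0.44. Errfi1, an inhibitor of the EGF receptor, had 603.0, 790.6 and 888.9 CPM in CCl4 livers, against 971.3, 1394 and 1666 CPM in oil livers, without overlap (log2 fold change -0.85, edgeR adjusted p = 0.000537). Zfp36l1, an mRNA decay factor, fell (-1.36, adjusted p = 0.00104) and Spred1, a brake on MAP kinase signalling, rose (0.51, adjusted p = 0.00311). Under the covariate for length 4 of these 16 fell and 3 rose.

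Upstream of the early genes, 6 of 24 MAP kinases and their activators fell and 3 rose (median -0.21, and 0.05 when scaled by library totals). Mapkapk2, a kinase below p38, fell (log2 fold change -0.55, edgeR adjusted p = 0.00131), and Mapk3, which encodes ERK1, rose (0.55, adjusted p = 0.000298). Of 14 SRF, ternary complex and CREB factors 4 fell and 1 rose (median -0.48). Without oil replicate 5, 8 fell and 1 rose, and under the covariate for length 3 fell and 2 rose. Srf and its partner Elk4 fell (log2 fold changes -0.95 and -1.04, edgeR adjusted p = 0.00425 and 0.00490), and Elk3 rose (0.52, adjusted p = 0.00756).

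Downstream, of 14 tested AP-1 target genes 11 rose and 0 fell, with a median log2 fold change of 1.53. Ccnd1, which encodes cyclin D1, rose 9.24-fold (log2 fold change 3.21 ± 0.23 SE, edgeR adjusted p = 3.69e-07), and Spp1, which encodes osteopontin and also stands in the bile duct list, rose 5.08-fold (2.35 ± 0.16 SE, adjusted p = 2.02e-07). The macrophage and stellate cell marker sums given above were also higher in CCl4 livers, and their part in these rises was not tested. Of 12 MYC and MAX network partners 2 fell and 1 rose (median -0.23, and 0.03 when scaled by library totals). Without oil replicate 5, and likewise under the covariate for length, 4 fell and 1 rose. Mlxipl, the glucose-responsive factor ChREBP, and Mxi1, a MYC antagonist, fell (log2 fold changes -1.93 and -0.38, edgeR adjusted p = 0.000420 and 0.0228), and Mxd3 rose (2.09, adjusted p = 7.81e-05). Mxi1 was called in 9 of 12 fits that each left out 1 liver.

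Of 20 MYC target genes 3 rose and 2 fell (median 0.05). Without oil replicate 5, 7 rose and 1 fell, and under the covariate for length 3 rose and 1 fell. Ldha, lactate dehydrogenase, and Npm1, a nucleolar protein, rose (log2 fold changes 0.88 and 0.76, edgeR adjusted p = 0.00226 and 0.0112), and the mitochondrial chaperonin gene Hspd1 fell (-0.51, adjusted p = 0.00454). Of 11 stress genes that are induced with Atf3, 6 rose and 0 fell (median 0.47). Without oil replicate 5, 5 rose and 1 fell, and under the covariate for length 5 rose and 0 fell. The gene that fell without oil replicate 5 was Gdf15 (log2 fold change -1.43, edgeR adjusted p = 0.0465). Nupr1, a stress-induced chromatin protein, rose 29.7-fold and Trib3, a pseudokinase, 5.71-fold (edgeR adjusted p = 2.04e-07 and 1.36e-06). Of 11 heat shock genes 3 fell and 1 rose (median -0.45). Hsph1 and Hsp90aa1 fell (log2 fold changes -1.13 and -0.65, edgeR adjusted p = 0.00159 and 0.0206), and Hspb1 rose (1.41, adjusted p = 0.00326). Under the covariate for length the Hsp90aa1 call was lost (log2 fold change -0.32, adjusted p = 0.0748 in edgeR).

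**Figure D5:**
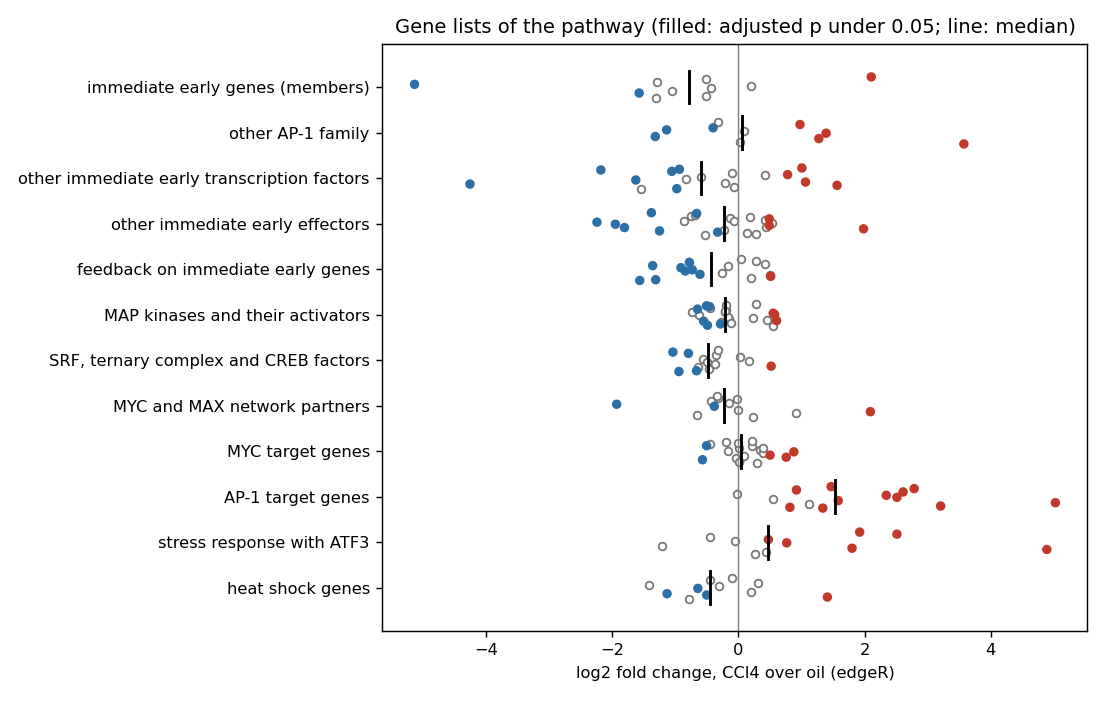
Log2 fold change of CCl4 over oil (horizontal axis) for the 10 immediate early genes (top row) and every tested gene of the 11 lists (other rows). Each point is a gene, filled where the edgeR adjusted p was under 0.05 (blue lower and red higher in CCl4 livers), and the vertical bar is the median of the row. AP-1 target genes sit to the right, at a median of 1.53, and the other immediate early transcription factors have a median of -0.59.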

How the data were processed

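RNA from whole liver of 12 mice was sequenced from a stranded total RNA library, per the labels' protocols. The authors deposited raw read counts per gene for each sample and for the series, and the 12 sample files equalled the series table. The build was GRCm38, per the submitters' processing notes. No aligner, annotation or strand setting is named in the labels, so antisense reads could be mixed in. No immediate early gene overlapped another gene of the table that has a position in RefSeq. Gene IDs without such a position could not be checked. Of 36528 numeric gene IDs 31049 were named from RefSeq for GRCm38.p6 and 78 from GENCODE M21, and 5401 without a name took 2.19% of counts.

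After filterByExpr and TMM, edgeR 4.0.16 in R 4.3.3 gave robust quasi-likelihood F tests with Benjamini-Hochberg adjustment over all tested genes (threshold 0.05). A prior count of 2 entered log2 CPM. SEs were obtained as the log2 fold change over the square root of F, unsigned. All 30 replicate pairs differed beyond sampling noise (lowest chi-square per gene 49.4). Replicate numbers only name samples, and the labels give no batch. The edgeR p-values set the difference between the groups against the spread between these samples. Depth limits genes far under 1 CPM. The genes and lists were chosen with earlier results of these data known. From each list were named the 2 called genes with the smallest p in the direction most called genes took, and the called gene with the smallest p in the other. Some genes that this rule or the ranking by r with Fos would name are not reported here. Other settings tried were scaling by library totals, by upper quartile or by DESeq2 size factors, the tests of DESeq2 1.42.0, and limma-voom 3.58.1, other filters, thinning, a 1.5-fold threshold, a length covariate, a prior count of 0.5 and leaving out libraries. The scripts were tested on simulated counts.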

Additional observations from a re-analysis of the deposited data

Results flagged for a closer look

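Of 20 groups of 6 livers (10 genes, each in CCl4 and in oil livers), 2 held a liver that stood far from the other 5, where chance gives about 1 in 20. Junb in CCl4 replicate 1 had a log2 CPM of 4.45, and the nearest CCl4 liver 5.88. The gap took up 0.678 of the range of the group. Egr1 in oil replicate 5 had a log2 CPM of 5.73, and the nearest oil liver 8.67, a gap of 0.688 of the range.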

How the results depend on the processing

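No paired analysis was possible because the replicate numbers only name samples and the labels tie no CCl4 liver to an oil liver. The 3 called genes (2 lower, 1 higher) became 7 (6 lower) with limma-voom, where 54.5% of all genes were called, 7 (6 lower) without oil replicate 5, and 6 (5 lower) without CCl4 replicate 6 and oil replicate 5 (most counts in short transcripts), a choice made after seeing the data. Under the covariate for length 1 gene was lower. Leaving out 1 liver at a time, 3 to 7 of the 10 genes were called, 2 to 6 of them lower and 1 higher each time, and 5238 to 7514 of all genes. Tested against a change of 1.5-fold, 2381 of all genes passed. Fosb and Ier3 were called in 23 of 23 alternatives, Jun in 22, Ier2 in 5, Egr1 and Jund in 4 each and Fos in 2, while Junb, Atf3 and Myc were called in none. Leaving out 1 liver at a time, the log2 fold change ran from -0.737 to 0.025 for Atf3, positive without oil replicate 6, and from -0.009 to 0.513 for Myc, negative without oil replicate 5. The difference in spread (CCl4 minus oil) turned its sign when SD replaced the mean absolute deviation for Jun (-0.13), Junb (0.038) and Ier2 (0.034), and with DESeq2 size factors for Ier2 (0.004). The cause of these changes was not tested. Scaling moved the median log2 fold change of all genes to 0.13 (upper quartile) and 0.27 (library totals), and rises made up 67.3% and 80.8% of calls, against 52.8% with TMM. With library totals the medians of the MAP kinase and MYC network lists turned to 0.05 and 0.03.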

Other observations

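Nr4a1, which encodes the nuclear receptor NUR77, is given here after its values were seen. It had 2.42, 7.89 and 27.9 CPM in CCl4 livers, against 27.5, 232.9 and 330.7 CPM in oil livers (lowest, median and highest liver). The log2 fold change was -4.26 ± 0.68 SE (edgeR adjusted p = 0.000238), and its r with Fos after removal of group means was 0.868. Dusp1, a phosphatase that switches off MAP kinases, was also chosen after its values were seen. It had 18.9, 72.4 and 94.8 CPM in CCl4 livers, against 97.8, 184.7 and 312.6 CPM in oil livers, without overlap (log2 fold change -1.57 ± 0.36 SE, edgeR adjusted p = 0.00358). Klf6, a zinc finger factor, chosen in the same way, went the other way, with 25.9, 47.6 and 75.0 CPM in CCl4 livers, against 13.5, 20.4 and 45.1 CPM in oil livers (log2 fold change 1.06 ± 0.31 SE, edgeR adjusted p = 0.0151). The Klf6 call was lost under the covariate for length (adjusted p = 0.0835 in edgeR).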
